A study of Sus scrofa with 63 samples.

Results

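Liver of finishing pigs was set against liver of weaning piglets within the HP offspring, the progeny of German Landrace gilts that received a high protein diet during gestation. The members were chosen by the label of the ontogenetic stage alone, and they are 31 of the 63 arrays, with 16 livers of stage 188 dpn (days post natum) and 15 livers of stage 28 dpn, 1 array per animal. All these pigs share the gestational HP diet, so every value below describes age within HP offspring, and no comparison between diets was made. Piglets were cross-fostered to sows outside the experiment, males were castrated as sucklings, and weaned pigs were housed singly until slaughter, with standard diets always on offer. Age, the change from milk to feed, and housing thus differ together between the stages and cannot be told apart. The labels give no hour of slaughter. Feeding state, way of slaughter and sampled liver lobe were the same for both stages, and the pigs had gone without feed for the night. The animals were picked as sib pairs balanced for sex. Sex, mother and pair are not in the labels and were not used, so the animals are not all independent and the p-values are blind to that.

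The liver turns surplus amino acids into glucose, fat and urea, makes most plasma proteins, and clears drugs and steroids with cytochrome P450 enzymes and transferases. A suckling piglet lives on milk, which is rich in fat, and a finishing pig on a feed rich in starch. Young liver still grows by cell division, and the liver sinusoids hold resident macrophages, the Kupffer cells, which meet microbes and interferon signals arriving from the gut.

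Signals were compared as log2 values, so a difference of 1 is a doubling, and changes are given as 188 dpn minus 28 dpn with their standard error (SE). Probe-sets entered the test when their signal exceeded the array's median on 50% or more of the arrays of either stage, and a call required an adjusted p under 0.05 in limma (Benjamini-Hochberg). Of 12418 probe-sets tested 4315 were called, which is 34.7%. At 188 dpn 1526 probe-sets (12.3%) were higher and 2789 (22.5%) were lower. The rises made up 35.4% of the calls, and this share depended on the scaling of the arrays: quantile normalization raised it to 47.4%, and centring each array on its median over these probe-sets raised it to 56.2%. Counted with 1 probe-set for each of 5241 genes with a symbol, 2106 (40.2%) were called, with 717 genes higher (13.7%) and 1389 lower (26.5%), and these are the shares against which the counts of gene lists should be read. The median change over these genes was −0.083, and each list's median is given as the distance from this value. The stages did not overlap in 97 genes (1.85%). In 33 genes (0.63%) all arrays of 188 dpn lay above all arrays of 28 dpn, and in 64 genes (1.22%) all lay below.

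The array medians ranged from 6.43 to 6.83 at 188 dpn and from 6.69 to 7.01 at 28 dpn, and a background level, set at the 95th percentile of 23 controls that match no pig transcript, averaged 5.64 at 188 dpn and 5.65 at 28 dpn. For RNAs added before labelling, the 3′ end was brighter than the 5′ end by 0.99 on average at 188 dpn and by 1.29 at 28 dpn. This difference was under 1.2 on 12 arrays of 188 dpn and 7 of 28 dpn, between 1.2 and 1.8 on 4 arrays of each stage, and over 1.8 on 0 and 4 arrays. The labels name no batch. Within the arrays under 1.2, 998 probe-sets rose and 1726 fell, and within those between 1.2 and 1.8, 249 rose and 432 fell. For actin the same measure averaged 4.10 ± 0.48 at 188 dpn (SD, n = 16) and 3.66 ± 0.30 at 28 dpn (SD, n = 15). For GAPDH it went the other way, with 0.66 ± 0.12 at 188 dpn and 0.76 ± 0.15 at 28 dpn (SD, same arrays).

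The tissue label was checked with markers of hepatocytes. All 10 defining markers on the array, among them ALB (albumin), TTR, APOA1 and SERPINA1, were above background on every array of both stages, and none of the 10 passed the test. ALB had a lowest, median and highest signal of 15.18, 15.71 and 16.24 at 188 dpn, against 15.19, 15.59 and 16.25 at 28 dpn (change 0.10, SE 0.11, adjusted p = 0.479). In the wider list of 15 hepatocyte genes only TAT, the aminotransferase of tyrosine, rose. In bulk tissue fewer cells of a type and less RNA per cell cannot be told apart, which holds for every result below.

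**Figure D1:**
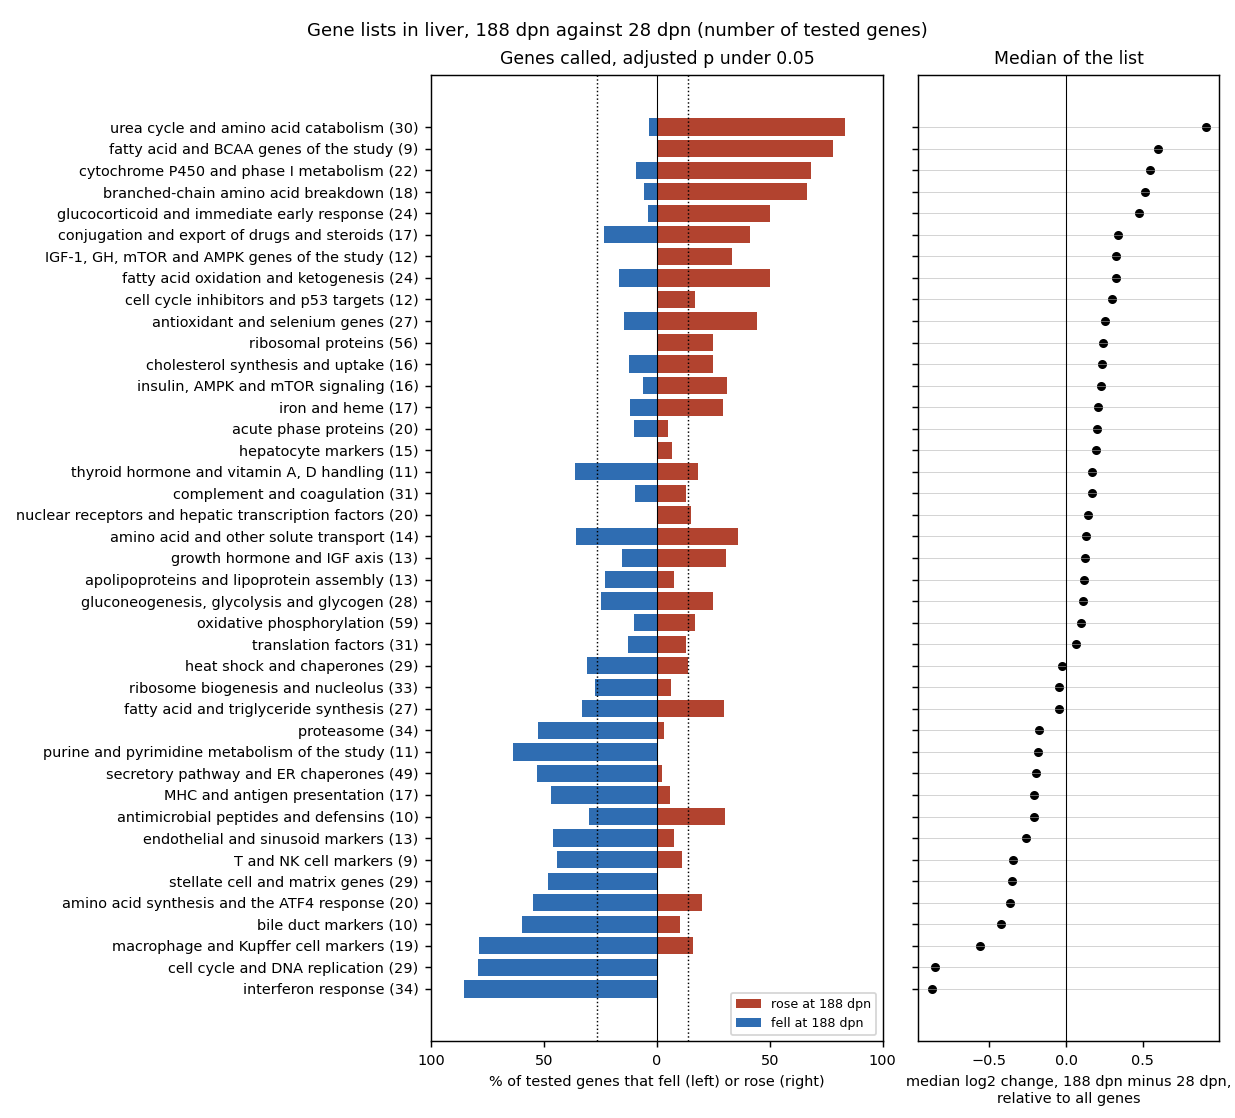
Bars give the percentage of tested genes of each list that rose (right) or fell (left) at 188 dpn against 28 dpn, with dotted lines at the shares over all genes (13.7% and 26.5%); points give the median log2 change of the list relative to all genes. Amino acid catabolism stands at the top with 25 of 30 genes higher at 188 dpn, and the interferon response at the bottom with 29 of 34 genes lower.

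Enzymes that break down amino acids and make urea were higher in finishing liver. The list of amino acid catabolism and urea synthesis held 30 tested genes: 25 rose, 1 fell and 4 did not pass, and its median stood 0.91 above that of all genes. All 5 enzymes of the urea cycle were among those that rose: CPS1, which fixes ammonia, changed by 0.52, OTC by 0.94, ASS1 by 0.69, ASL by 0.94 and ARG1, the arginase that releases urea, by the most. ARG1 had a lowest, median and highest signal of 13.36, 13.96 and 15.04 at 188 dpn, against 11.95, 12.26 and 13.48 at 28 dpn (change 1.66, SE 0.15, adjusted p = 4.80e-10). A single array of 28 dpn reached into the range of 188 dpn.

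The largest rise of the list was that of DDO, which oxidises D-aspartate. DDO lay between 8.99 and 10.43 with a median of 9.84 at 188 dpn, and between 6.18 and 8.34 with a median of 7.02 at 28 dpn (change 2.63, SE 0.18, adjusted p = 9.60e-13), so the stages did not overlap. GOT1, the cytosolic aspartate aminotransferase, KYAT1, an aminotransferase of kynurenine and glutamine, and SHMT1, which converts serine to glycine, also rose without overlap, with 1.52, 1.49 and 1.31. GPT, the alanine aminotransferase, rose by 1.40 and GNMT, which uses up methyl groups of methionine, by 1.13.

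SDS, which turns serine into pyruvate, differed among the finishing pigs more than any of these. It ranged from 7.35 to 13.49 with a median of 10.21 at 188 dpn, and from 7.39 to 9.31 with a median of 8.49 at 28 dpn (change 1.85, SE 0.46, adjusted p = 0.00189). Several finishing pigs stood at the level of weaning piglets, and others far above every one of them. The gene that fell was CDO1, the dioxygenase of cysteine, with −0.39. DAO, AMT, FTCD and KYNU did not pass the test, with changes between −0.32 and 0.29.

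The breakdown of valine, leucine and isoleucine moved the same way with smaller steps. Of 18 tested genes 12 rose, 1 fell and 5 did not pass, with a median of 0.51 relative to all genes. ABAT, a transaminase of GABA and of the valine pathway, rose by 0.92, MUT, the mutase of methylmalonyl-CoA, by 0.84, and the leucine enzymes AUH, MCCC2 and IVD by 0.80, 0.74 and 0.70. BCKDHB, a subunit of the dehydrogenase that commits the branched chains to oxidation, ranged from 12.17 to 13.01 with a median of 12.59 at 188 dpn, against 11.65 to 12.50 with a median of 11.92 at 28 dpn (change 0.66, SE 0.08, adjusted p = 9.58e-08). BCAT1, the cytosolic transaminase that opens the pathway, fell with −0.30, a call that was lost after quantile normalization, after centring and without 188 dpn arrays 15 and 16, and BCAT2, its mitochondrial counterpart, gave −0.53 without passing the test.

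The study lists 12 genes of fatty acid and branched-chain metabolism for HP offspring in this period. Of 9 that were tested 7 rose, none fell, and DBT (0.33) and HIBCH (0.32) did not pass. ACADSB rose by 0.60, PCCA by 0.55, PTGR1 by 0.52, ACADL by 0.50 and ACAA1 by 0.26, beside AUH and IVD. These genes were chosen by the study on these animals, so their direction is not independent evidence. The study used other signal values, another model and its own thresholds.

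The list of amino acid synthesis and of the stress factor ATF4 held more falls than rises. In it 11 of 20 genes fell, 4 rose and 5 did not pass, with a median of −0.36 relative to all genes. Not all of the 11 make amino acids. The summed signal of the 20 genes went the other way. It ranged from 72200 to 120000 with a median of 95300 at 188 dpn. At 28 dpn it ranged from 52800 to 76300 with a median of 67000. ALDH18A1 and PYCR1, the enzymes that build proline, fell with −2.50 and −1.34, and neither showed overlap between the stages. ALDH18A1 ranged from 7.49 to 8.85 with a median of 8.40 at 188 dpn, against 9.95 to 11.52 with a median of 10.85 at 28 dpn (SE 0.15, adjusted p = 5.34e-14). ASNS, the asparagine synthetase, fell by 1.28 on the log2 scale, again without overlap, and the transcription factor ATF5 by 2.14.

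The serine pathway split within itself. PHGDH and PSAT1, its opening enzymes, rose by 0.51 and 0.86, while PSPH, the phosphatase of its last step, fell with −1.76. PSPH ranged from 6.54 to 9.33 with a median of 7.89 at 188 dpn, against 8.55 to 10.83 with a median of 9.70 at 28 dpn (SE 0.25, adjusted p = 8.81e-07). The tRNA synthetases MARS, GARS and AARS fell with −0.78, −0.53 and −0.36. ATF4 itself and its target DDIT3 did not pass the test, with −0.18 and −0.01.

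**Figure D2:**
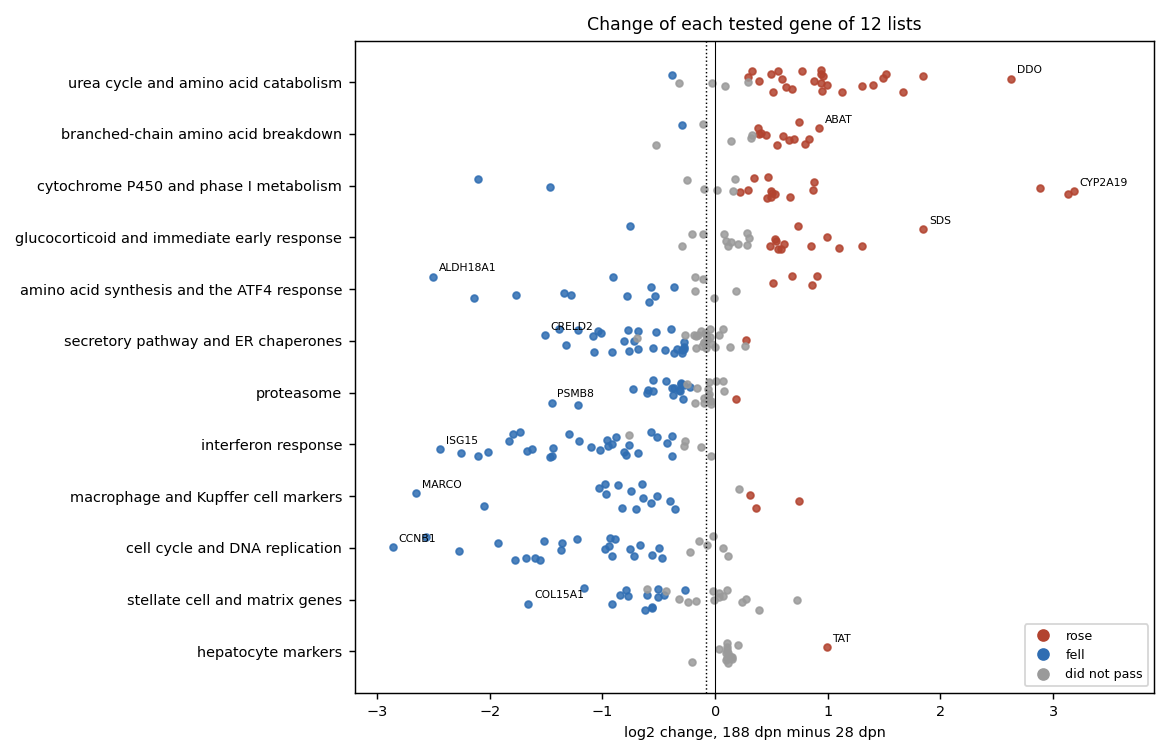
Each point is the log2 change (188 dpn minus 28 dpn) of 1 tested gene in 12 lists, coloured by its call, and the dotted line marks the median of all genes (−0.083). Nearly all genes of the interferon response and of the cell cycle lie left of the dotted line, 27 of the 30 genes of amino acid catabolism lie above 0, and 14 of 15 hepatocyte markers did not pass the test.

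Genes of drug metabolism were mostly higher in finishing liver, with a few strong exceptions. Of 22 genes of cytochrome P450 and phase I metabolism 15 rose, 2 fell and 5 did not pass, and the median was 0.54 relative to all genes. CYP2A19, a P450 that clears the odour compound skatole in pigs, ranged from 14.56 to 15.75 with a median of 15.25 at 188 dpn, against 9.18 to 13.77 with a median of 12.28 at 28 dpn. The weaning piglets were thus spread widely below the tight group of finishing pigs. CYP2B22, a P450 of the drug-inducible CYP2B family, ranged from 8.17 to 10.57 with a median of 9.18 at 188 dpn, against 4.28 to 7.90 with a median of 6.84 at 28 dpn, where it was above background on 9 of 15 arrays, so its change of 2.89 is not exact.

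CYP2J34, of a P450 family that oxidises arachidonic acid, rose by 3.13 (SE 0.54, adjusted p = 2.44e-05), but its stages overlapped broadly, with 7.42 to 13.23 at 188 dpn and 5.54 to 12.28 at 28 dpn. CYP2E1, which oxidises ethanol and ketones, rose by 0.30, and FMO1, a monooxygenase of amines, by 0.87. Near-identical members of these families may share signal on the array. Against the list, CYP26A1, which degrades retinoic acid, and CYP1A1, which oxidises aromatic hydrocarbons, fell with −2.11 and −1.46. CYP26A1 ranged from 6.91 to 9.29 with a median of 7.88 at 188 dpn, against 9.12 to 10.65 with a median of 10.16 at 28 dpn (SE 0.22, adjusted p = 6.64e-09). The stages of CYP26A1 overlapped only at their edges.

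In conjugation and export 7 of 17 genes rose (41.2%, against 13.7% over all genes) and 6 did not pass. The 4 genes that fell (23.5%) were near the share over all genes (26.5%). The median was 0.34 relative to all genes. SULT1A3, a sulfotransferase of phenols, rose by 2.04 (SE 0.21, adjusted p = 3.78e-09), and PAPSS2, which makes the sulfate donor, rose by 1.66 without overlap. PAPSS1, the other enzyme that makes this donor, fell with −0.62, and GSTA4, a glutathione transferase of lipid aldehydes, with −1.13. Handling of thyroid hormone and vitamins A and D moved both ways: DIO1 and DIO2, the deiodinases that activate thyroid hormone, fell with −1.15 and −1.41, and SERPINA7, which carries it in blood, with −0.69. DIO2 exceeded background on only 10 of the 16 finishing arrays. RARRES1, a gene that responds to retinoids, rose by 1.29. In all, 2 of these 11 genes rose and 4 fell, near the shares over all genes, with a median 0.17 above that of all genes.

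Fatty acid and triglyceride synthesis held 27 tested genes: 8 rose, 9 fell and 10 did not pass. The rises (29.6%) stood against 13.7% over all genes, and the falls (33.3%) against 26.5%. The median was −0.05 relative to all genes. After centring of the arrays 8 rose and 3 fell, so the count of falls depended on the scaling. LPIN1, the phosphatase that makes diacylglycerol, ranged from 9.02 to 12.43 with a median of 10.51 at 188 dpn, against 7.01 to 8.65 with a median of 7.42 at 28 dpn (change 3.20, SE 0.23, adjusted p = 4.18e-12), and a second probe-set of the gene rose by 2.84. No array of 28 dpn reached the lowest of 188 dpn. SCD, the desaturase that makes oleate, rose by 1.56, ME1, which supplies NADPH, by 1.41, and FASN, the fatty acid synthase, by 1.07. FADS2, the desaturase of polyunsaturated fatty acids, and PLIN2, the coat protein of lipid droplets, fell with −1.19 and −1.32.

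In fatty acid oxidation and ketogenesis 12 of 24 genes rose, 4 fell and 8 did not pass, with a median of 0.33 relative to all genes. PDK4, which spares glucose by switching off pyruvate oxidation, rose by 1.30, and ACAA2, the mitochondrial thiolase, by 1.00. The entry steps went the other way, since CPT1A, the gate of mitochondrial oxidation, and SLC22A5, the carrier of its cofactor carnitine, fell with −0.80 and −0.98. CPT1A ranged from 10.40 to 13.42 with a median of 11.94 at 188 dpn, against 11.90 to 13.24 with a median of 12.73 at 28 dpn (SE 0.24, adjusted p = 0.00923), so the finishing pigs spanned the whole range of the piglets and more. Of 16 cholesterol genes 4 rose, 2 fell and 10 did not pass. The 4 were the synthesis enzymes SC5D with 1.50 (SE 0.20, adjusted p = 2.86e-07), DHCR7 with 1.00 and TM7SF2 with 0.91, and INSIG1, a regulator of sterol sensing, with 1.17, while INSIG2 fell with −1.02.

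In glucose metabolism 7 of 28 genes rose, 7 fell and 14 did not pass. The share that rose (25.0%) was above that over all genes (13.7%), and the share that fell (25.0%) was near it (26.5%). Of the genes of glucose output PCK1, the cytosolic PEP carboxykinase, rose by 0.53 and SLC37A4, the glucose-6-phosphate carrier of the ER, by 0.94, and KHK, the fructokinase, rose by 0.57. Pyruvate carboxylase (PC) fell with −0.67, LDHA, the lactate dehydrogenase, with −0.83, and PPP1R3B, which steers glycogen synthesis, with −0.98. In the list of glucocorticoid and immediate early response genes 12 of 24 rose, 1 fell and 11 did not pass, with a median of 0.48 relative to all genes. TSC22D3, a target of the glucocorticoid receptor, rose by 1.10, the receptor NR3C1 by 0.59 on one probe-set (another gave −0.34 and did not pass), FOS by 0.74 and JUN by 0.54, whereas FKBP5 (0.09), SGK1 (0.08) and EGR1 (−0.21) did not pass. Part of this list, namely SDS, TAT and PCK1, also belongs to the lists above.

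PER1, a repressor of the circadian clock and a target of glucocorticoids, ranged from 10.93 to 12.32 with a median of 11.36 at 188 dpn, against 9.42 to 10.54 with a median of 10.02 at 28 dpn (change 1.31, SE 0.12, adjusted p = 6.17e-10). The stages did not overlap. The output factor DBP rose by 0.59 and NFIL3 by 0.57, while ARNTL (0.08) and CRY2 (−0.17) did not pass. KLF15, a factor that drives amino acid breakdown in fasted mouse liver, rose by 1.25 without overlap.

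In the growth hormone and IGF axis 4 of 13 genes rose, 2 fell and 7 did not pass. IGF1, the main growth factor released by the liver, ranged from 8.89 to 10.22 with a median of 9.84 at 188 dpn, against 7.91 to 10.19 with a median of 8.65 at 28 dpn (change 0.84, SE 0.20, adjusted p = 0.00103), and a second probe-set also gave 0.84. Most finishing pigs lay above most piglets, with overlap. GHR, the receptor of growth hormone, rose by 0.55, and IGFALS, which holds IGF1 in the circulation, by 0.91, with 14 of 15 piglets above background. IGFBP2, a binding protein of the fetal and fasted state, fell with −1.14 and STAT5A with −0.61, while IGF2 (0.04) and IGF1R (0.12) did not pass. Only 2 genes of this list rose when the class of the added RNAs was kept as a block, since GHR (0.38, adjusted p = 0.0866) and IGFALS (0.75, adjusted p = 0.0646) no longer passed in limma. Within the arrays between 1.2 and 1.8 the change of GHR was 0.016.

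The study lists 25 genes of IGF-1, growth hormone, mTOR and AMPK signaling for HP offspring. Of 12 that were tested 4 rose, none fell and 8 did not pass. IGF1, EIF4B (0.65), PPP2R5A (0.28) and STK11 (0.18) rose, and 10 of the 12 rose after centring of the arrays. The study also lists 18 genes of purine and pyrimidine metabolism. Of 11 that were tested 7 fell and none rose. RRM1, a subunit of ribonucleotide reductase, fell with −1.23. PNPT1, an RNA nuclease of mitochondria, fell with −1.04, and 11 of 16 finishing pigs were above background for it. Only 2 of the 11 fell after centring. Both lists were picked by the study on these animals, so their counts are not independent evidence. The study used GCRMA values, a mixed model and its own thresholds. It kept genes whose regulation differed from that in offspring of the adequate protein diet. A gene that did not pass here is therefore not a failed repeat.

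HAMP, which encodes hepcidin, the hormone that blocks the export of iron, had the largest change of all named genes. It ranged from 11.26 to 14.67 with a median of 13.68 at 188 dpn, and from 1.93 to 12.97 with a median of 6.46 at 28 dpn (change 6.48, SE 0.76, adjusted p = 4.69e-08). Weaning piglets differed from each other by far more than finishing pigs: HAMP was above background on 11 of 15 arrays, and 1 piglet lay within the range of 188 dpn. The size of the change is therefore not exact. Among the other genes of iron and heme ALAD, an early enzyme of heme synthesis, rose by 0.80 and ACO1, the cytosolic aconitase that can bind iron-responsive RNA, by 0.61, although one of its 3 probe-sets gave −0.06 and did not pass, while the iron carrier SLC11A2 and the erythroid synthase ALAS2 fell with −0.68 each. Of 17 genes of this list 5 rose, 2 fell and 10 did not pass, the ferritins FTH1 (0.13) and FTL (0.11) among them.

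**Figure D3:**
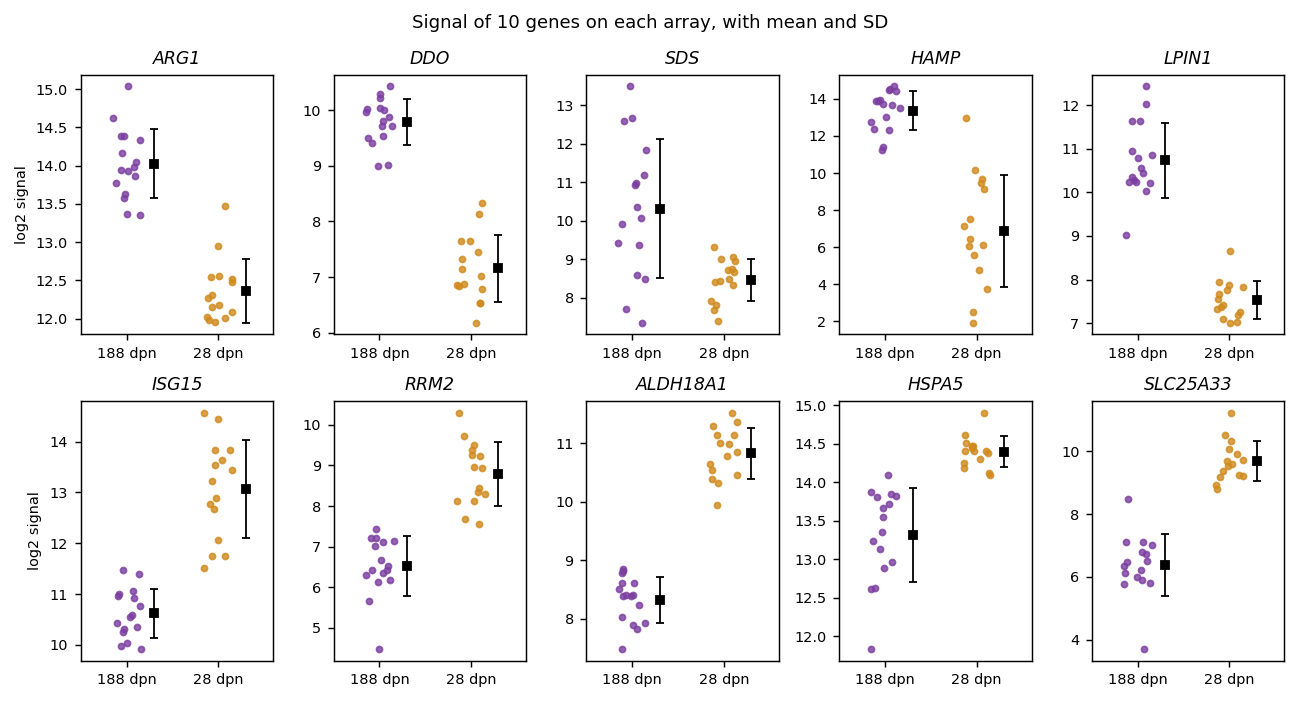
Log2 signal of 10 genes on each array of 188 dpn (left, 16 points) and 28 dpn (right, 15 points), with squares and bars for mean ± SD. ARG1, DDO, SDS, HAMP and LPIN1 rose and the 5 genes of the lower row fell; HAMP is widely spread among the piglets (1.93 to 12.97) and SDS among the finishing pigs (7.35 to 13.49).

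Antioxidant genes rose in 12 of 27 cases and fell in 4, with 7 and 6 after quantile normalization. GPX3, the glutathione peroxidase secreted into plasma, rose by 2.12 without overlap, with 10.28 to 12.12 at 188 dpn and 7.46 to 9.98 at 28 dpn. GPX7, a peroxidase of the ER, fell with −2.14, also without overlap, and only 7 of 16 finishing pigs were above background, which makes that size inexact. Among 14 genes of solute transport 5 rose and 5 fell. SLC3A1, the partner of a cystine carrier, rose by 3.27, with 10 of 15 piglets above background, while SLC7A9, the carrier that it pairs with in kidney and gut, fell with −1.45. SLC25A33, a mitochondrial carrier of pyrimidine nucleotides, ranged from 3.71 to 8.49 with a median of 6.40 at 188 dpn, against 8.79 to 11.24 with a median of 9.59 at 28 dpn (change −3.31, SE 0.29, adjusted p = 1.61e-10). Its signal had averaged 11.96 at 94 dpc and 11.53 at 1 dpn, so that 188 dpn was the lowest of the 4 stages.

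Interferon response genes were lower in finishing liver nearly throughout. Of 34 tested genes 29 fell, none rose and 5 did not pass, and the median was −0.87 relative to all genes; 29 fell also after quantile normalization and after centring. ISG15, a ubiquitin-like protein made upon infection, ranged from 9.92 to 11.47 with a median of 10.56 at 188 dpn, against 11.52 to 14.57 with a median of 13.23 at 28 dpn (change −2.44, SE 0.26, adjusted p = 7.99e-09). The stages of ISG15 did not overlap, and the piglets were spread more widely than the finishing pigs. MX1, which blocks viruses, fell with −2.25, ISG12(A) with −2.10, IRF7, the factor that amplifies interferon, with −2.02, and USP18, which removes ISG15, with −1.83.

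The whole set followed this pattern by array. The summed signal of the 34 genes ranged from 17900 to 31600 with a median of 22700 at 188 dpn, and from 35000 to 107000 with a median of 66100 at 28 dpn, so no animal of 1 stage reached the other. The receptors of type I interferon IFNAR1 (−0.12) and IFNAR2 (−0.27) and the factor IRF3 (−0.03) did not pass the test. Of the 29 genes that fell 25 had their highest mean of the 4 stages at 28 dpn. A gene that fell cannot be highest at 188 dpn or lowest at 28 dpn, so such counts are partly fixed by the call. Not taken relative to all genes, the median change of the list was −0.96. It was −1.07 within the arrays under 1.2 for the added RNAs and −0.95 within those between 1.2 and 1.8.

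Genes that prepare and present peptides fell along with them. The inducible proteasome subunits PSMB8 and PSMB10 and the activator PSME2 fell with −1.45, −1.21 and −0.73. PSMB10 ranged from 9.66 to 10.64 with a median of 10.11 at 188 dpn, against 10.74 to 12.30 with a median of 11.34 at 28 dpn, without overlap. The constitutive partners PSMB5 (−0.04) and PSMB7 (−0.09) did not pass. Over the 34 genes of the proteasome 18 fell, 1 rose and 15 did not pass, and the median of −0.18 relative to all genes was small. Of 17 genes of the MHC and antigen presentation 8 fell, 1 rose and 8 did not pass: TAP1, which pumps peptides into the ER, fell with −1.21 and its partner TAPBP with −0.61, while B2M (0.07) and the class II gene SLA-DRA (−0.13) did not pass. SLA-DMA rose by 0.43 on one probe-set and fell with −0.58 on another, so its direction is uncertain.

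Markers of macrophages were lower as well, and their values stand beside the interferon result because they moved with it. Of 19 markers of macrophages and Kupffer cells 15 fell, 3 rose (1 after quantile normalization) and 1 did not pass. Their summed signal ranged from 85400 to 116000 with a median of 98200 at 188 dpn. At 28 dpn it ranged from 98300 to 128000 with a median of 113000, so the sums overlapped broadly. The mean log2 signal of the same markers, after subtraction of the mean over all arrays, overlapped only at the edges. This mean ranged from −0.10 to 0.62 at 188 dpn and from 0.57 to 1.18 at 28 dpn. Of the 8 defining markers on the array 7 fell and 1 rose, and of these 8 only MARCO, a receptor for bacteria, was not above background on every array, being above it on 9 of 16 arrays at 188 dpn. The part of these cells in the fall of the interferon genes was not tested.

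MARCO ranged from 2.81 to 7.33 with a median of 5.85 at 188 dpn, against 5.76 to 9.76 with a median of 8.25 at 28 dpn. SIGLEC1, a lectin of macrophages, fell with −2.06, with 7 of 16 finishing pigs above background. CD163, the receptor for haemoglobin, fell with −0.97 and VSIG4, a complement receptor of Kupffer cells, with −0.75, whereas FOLR2, a folate receptor of resident macrophages, rose by 0.75, and CD5L, which these cells secrete, rose by 0.31. For lymphocytes, CD3D and GNLY fell with −0.67 and −0.72, CD247 rose by 0.67, and CD8A (0.39) did not pass, which gives 1 rise and 4 falls among 9 markers of T and NK cells. Of 3 markers of B and plasma cells JCHAIN, which joins the chains of secreted antibodies, rose by 1.17 (SE 0.19, adjusted p = 9.36e-06), BLNK, an adaptor of the B cell receptor, fell with −0.61 (adjusted p = 0.0179), and SDC1 (0.21) did not pass.

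Genes of cell division fell in 23 of 29 cases, none rose and 6 did not pass, with a median of −0.85 relative to all genes. RRM2, the subunit of ribonucleotide reductase made for DNA synthesis, ranged from 4.48 to 7.43 with a median of 6.48 at 188 dpn, against 7.56 to 10.30 with a median of 8.93 at 28 dpn (change −2.27, SE 0.26, adjusted p = 2.87e-08). No array of 188 dpn reached the lowest of 28 dpn. CCNB1, the cyclin of mitosis, PTTG1, which holds sister chromatids together, and TOP2A, which untangles DNA, fell with −2.86, −2.56 and −1.93.

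At 188 dpn these mitotic genes were close to background. CCNB1 and TOP2A were above it on 6 of 16 arrays and PTTG1 on 9 of 16, against 15 of 15 arrays at 28 dpn for each, so the sizes of their changes are not exact. All 23 genes that fell had their lowest mean of the 4 stages at 188 dpn, and 18 of them their highest at 94 dpc. Both counts are partly fixed by the call, since a gene that fell cannot be lowest at 28 dpn or highest at 188 dpn. MCM2, of the replication helicase, fell with −1.77, while the inhibitors CDKN1A (0.22) and CDKN1B (0.27) did not pass and BTG2, which restrains proliferation, rose by 0.79. The tubulin gene TUBA1B fell with −1.17 without overlap. Markers of blood cells and their precursors were lower beside this list in part. Of 4 genes of red cell precursors and globins HBM and ALAS2 fell with −0.61 and −0.68, and the summed signal ranged from 2390 to 6070 with a median of 3690 at 188 dpn, and from 3610 to 14500 with a median of 5720 at 28 dpn. Of 6 markers of neutrophils and myeloid precursors S100A8, S100A9 and NCF1 fell with −1.11, −1.16 and −0.50, with a summed signal of 718 to 2750 and a median of 1200 at 188 dpn, against 952 to 4520 and a median of 2210 at 28 dpn. None of the 10 genes rose, both sums overlapped between the stages, and their part in the fall of the cell division genes was not tested.

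Chaperones of the endoplasmic reticulum (ER) were lower in finishing liver. Of 49 genes of the secretory pathway 26 fell, 1 rose and 22 did not pass, and 18 fell after centring. HSPA5, the main chaperone of the ER, ranged from 11.83 to 14.09 with a median of 13.45 at 188 dpn, against 14.09 to 14.90 with a median of 14.40 at 28 dpn (change −1.08, SE 0.16, adjusted p = 2.31e-06). The stages met at 14.09 without overlap, and the finishing pigs were spread over more than 2 units.

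The larger falls were CRELD2 and MANF, proteins induced by ER stress, with −1.51 and −1.22, DNAJB11, a partner of HSPA5, with −1.39, KDELR3, which retrieves ER proteins, with −1.32, and HYOU1 with −1.07. Disulfide isomerases fell too, with −1.04 for PDIA3 and −0.77 for PDIA4. By contrast the channel subunits SEC61A1 (−0.12) and SEC61B (−0.17), the ribophorin RPN1 (−0.08) and the stress factor XBP1 (−0.00) did not pass the test. Of the 26 genes that fell 18 had their highest mean of the 4 stages at 1 dpn, and 18 their lowest at 188 dpn. These counts, too, are partly fixed by the call.

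Genes of cells around the hepatocytes were lower in part. Of 29 genes of stellate cells and matrix 14 fell, none rose and 15 did not pass, and 2 rose after quantile normalization or centring. COL4A2, of basement membrane collagen, ranged from 8.74 to 10.20 with a median of 9.53 at 188 dpn, against 10.23 to 11.11 with a median of 10.67 at 28 dpn, without overlap. SPARC, a matrix protein, fell with −0.92, and MMP14 and MMP2, which cut the matrix, with −0.79 and −0.56. The fibrillar collagen COL1A2 (0.07) and the stellate cell markers DES (0.04) and ACTA2 (0.24) did not pass, and of the 5 defining markers tested only PDGFRB fell.

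Of 13 endothelial markers 6 fell and 1 rose: CDH5, the cadherin of endothelium, fell with −0.67, and VWF rose by 1.00, with 13 of 15 piglets above background. Among 10 bile duct markers 6 fell and 1 rose, with EPCAM at −1.08 and KRT19 at −1.98. KRT19 exceeded background in 10 of 16 finishing pigs and 14 of 15 piglets.

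Some of the largest changes without overlap fell outside these groups. CAPNS1, the small subunit of calpain, ranged from 10.94 to 13.02 at 188 dpn and from 7.54 to 10.86 at 28 dpn on one probe-set (change 2.29), while another probe-set gave 0.10 and did not pass. FNTA, a subunit of farnesyltransferase, gave −3.06 on one probe-set and −0.31 on another. For both genes the size thus depends on the probe-set. SGF29, a subunit of histone acetyltransferase complexes, rose by 1.59, and LOC780435 by 1.43.

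Of the decreases without overlap, DEFB1, a defensin, fell with −2.07, CAMK2N1, an inhibitor of CaM kinase II, with −1.88, and MDK, a growth factor of developing tissue, with −1.75. CASP1, the protease that matures interleukin 1, fell with −1.69, and TOR3A, ARHGEF6, ANKRD29 and PAQR7 fell by between 1.54 and 1.84 on the log2 scale. The imprinted gene SNRPN also fell with −1.54. AFP, the fetal counterpart of albumin, was above background on all 15 arrays at 28 dpn and on 1 of 16 at 188 dpn, and PEG10, another imprinted gene, on 15 of 15 and 7 of 16.

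**Figure D4:**
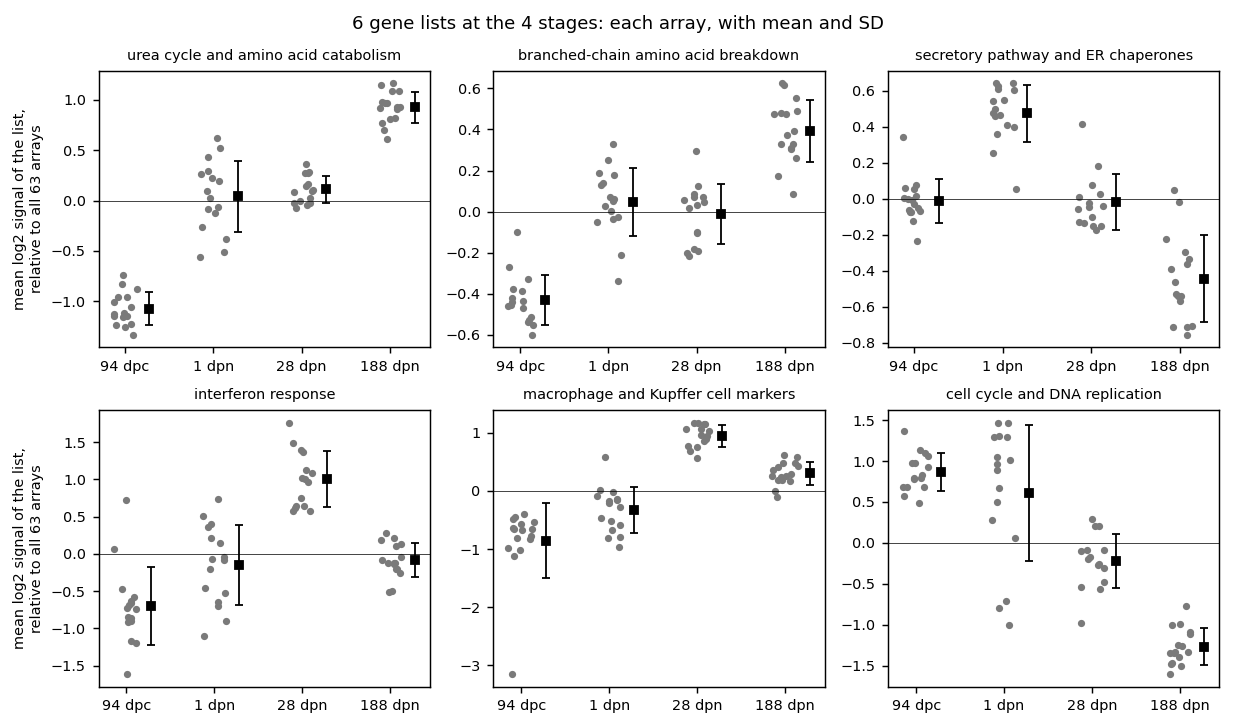
Mean log2 signal of 6 gene lists on each array of the 4 stages after subtraction of the mean over all 63 arrays, with squares and bars for mean ± SD. The interferon list was highest at 28 dpn (1.00) and stood at −0.09 at 188 dpn, while amino acid catabolism was highest at 188 dpn (0.93) and the cell cycle lowest (−1.27).

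Set beside the 2 earlier stages, the lists followed different courses. Relative to all 63 arrays, amino acid catabolism averaged −1.07 at 94 dpc, 0.04 at 1 dpn, 0.11 at weaning and 0.93 in finishing pigs. Branched-chain breakdown stood at −0.43, 0.05, −0.01 and 0.39 in the same order. Of the 25 genes of amino acid catabolism that rose 21 had their highest mean at 188 dpn. This count is partly fixed by the call, since a gene that rose cannot be highest at 28 dpn. The ER list stood at −0.01, 0.47, −0.02 and −0.44, and the interferon list at −0.70, −0.15, 1.00 and −0.09. These levels are a description and were not tested, and the array medians also differed between the stages.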

How the data were processed

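Total RNA of liver was hybridised to Affymetrix porcine arrays. The authors deposited log2 signal values, made with GCOS 1.1.1 according to the submitters' processing notes and scaled to a common trimmed mean on each array. The GCRMA values, detection calls and mixed model of the study's methods were not used here. Control probe-sets (188) were left out. Of the other 23935 probe-sets 10069 carry exactly 1 symbol in the platform annotation.

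The 31 arrays of 188 dpn and 28 dpn entered a linear model of limma 3.58.1 in R 4.3.3 (eBayes, two-sided, no covariates), and p-values were adjusted over all probe-sets tested. In lists and counts a gene was represented by its probe-set of the highest mean. Genes named for the 15 largest increases and decreases without overlap were given by their non-overlapping probe-set of largest change. No set test was run. The members, the 48 gene lists and the rule for named genes were chosen with earlier results of these data known. The rule took the 15 largest increases and decreases without overlap between the stages, up to 6 called members of each list described, the genes the study lists for HP offspring, and 11 leading genes. Further list members were named after their values were seen. The number of arrays and the distance from background limit the precision. The procedure was tested on simulated data. Alternatives changed the filter on level or on spread, the scaling between arrays, the arrays in the fit, the weighting of arrays, the test, the threshold, a covariate for the added RNAs and the probe-set of a gene. No sequences are printed.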

Additional observations from a re-analysis of the deposited data

How the results depend on the processing

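No paired analysis was possible because the labels give the arrays of both stages no shared animal, mother or replicate number. Of 263 named genes the eBayes fit with trend kept all calls and directions, quantile normalization ended 22 calls, centring 13, the class of the added RNAs as a block 20, an adjusted p under 0.01 33, the arrays under 1.2 alone 53, those of 1.2 to 1.8 alone 161, a 2-fold limit 146 and the Wilcoxon test 6. PLTP reversed to 0.088 in arrays with a difference of the added RNAs of 1.2 to 1.8. A filter at the 75th percentile left 1699 probe-sets that fell, of fewer tested. Centring gave 2372 that rose and 1848 that fell. A limit of 2-fold left 544 called, 183 higher and 361 lower. With arrays under 1.2 for the added RNAs alone 2724 were called (998 rose, 1726 fell), and with those of 1.2 to 1.8 alone 681 (249 rose, 432 fell), both from fewer arrays. These fits, the block and the fit without 188 dpn arrays 15 and 16 were chosen after seeing the data.

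Among lists, centring gave 3 hepatocyte markers, 8 genes of insulin, AMPK and mTOR signaling (5 in the values as deposited), 5 cell cycle inhibitors, 10 IGF, mTOR and AMPK genes of the study, 37 ribosomal proteins, 8 translation factors, 10 of complement and coagulation and 2 of B cells that rose, and 3 of fatty acid synthesis, 1 apolipoprotein gene and 2 purine and pyrimidine genes that fell. Quantile normalization gave 8 of insulin signaling, 7 antioxidant genes, 0 ribosomal proteins and 4 of the respiratory chain that rose and 4 acute phase genes that fell. In the other direction, 6 acute phase genes and 7 of ribosome assembly rose and 2 of fatty acid oxidation fell after centring, and 16 of the respiratory chain, 6 of complement and coagulation and 4 ribosomal proteins fell and 1 macrophage marker rose after quantile normalization. With any probe-set of a gene counted 4 genes of the growth hormone axis and 5 acute phase genes fell. The block left 2 genes of the growth hormone axis and 2 of insulin signaling that rose and 3 purine and pyrimidine genes that fell. Without 188 dpn arrays 15 and 16, 3 of insulin signaling and 7 translation factors rose. The cause of these differences was not tested. The planned count of promoter motifs was not run, since no promoter sequences were used here. Changes of genes near background are limited by it.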

Other observations

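Ribosomal protein genes changed by small amounts that depended on the scaling. Of 56 tested genes 14 rose and 42 did not pass, led by RPS25 with 0.26, RPL22 and RPS28 with 0.23 each, while 37 rose after centring and none after quantile normalization, where 4 fell. Of 33 factors of ribosome assembly 9 fell, a share near that over all genes, and 2 rose, with 7 and 7 after centring and 6 and 4 after quantile normalization. GAR1 (−0.56) and PES1 (−0.49), which take part in the processing of ribosomal RNA, were among the 9. For translation factors 4 of 31 rose and 4 fell (12.9% each, against 13.7% and 26.5% over all genes), with EIF4B at 0.65 and EIF5B at −0.68.

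Respiratory chain genes rose in 10 of 59 cases (16.9%) and fell in 6 (10.2%), against 13.7% and 26.5% over all genes. After quantile normalization 4 were higher and 16 lower. SDHA, SDHB and SDHC of complex II rose by 0.27, 0.20 and 0.37, and CYCS, cytochrome c, fell with −0.51. Cytosolic chaperones fell in 9 of 29 cases (31.0%) and rose in 4 (13.8%), near the shares over all genes. HSPH1, HSPA8 and DNAJA1 fell with −0.86, −0.77 and −0.63, although 3 other probe-sets of HSPA8 and another of DNAJA1 did not pass, while BAG3, HSP70.2 and HSPB8 rose by 0.95, 0.90 and 0.69. Most plasma proteins of the acute phase did not pass the test: of 20 genes only HAMP rose in the values as deposited, against 6 after centring, and LRG1 (−0.72) and SAA2 (−0.38) fell, while CRP (0.17), HP (0.11) and ORM1 (−0.03) did not pass. In complement and coagulation 4 of 31 rose (12.9%, near the 13.7% over all genes), with C4A at 0.45 and F9 at 0.33. The 3 that fell (9.68% against 26.5%) were CFP (−1.07), C1QA (−0.98) and C1QC (−0.57), which macrophages also make. MBL2, a lectin of complement, gave −1.30 without passing the test.

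Of the 4315 called probe-sets 1747 carry no single symbol and entered no list. In 13 genes several probe-sets were called in opposite directions, among them SLA-DMA and PLTP.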
